A study of Mus musculus with 2 samples.

Results

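The migrating newborn projection neurons of the newborn mouse cortex were described from single-cell RNA sequencing of 1 wild type (WT) library and 1 STINGf/f;Nestin-Cre (cKO) library. The cells were chosen by a rule on raw counts of unique molecular identifiers (UMIs, each marking 1 captured RNA molecule). A cell had at least 1 UMI of Neurod2 plus Neurod6 and at least 3 UMIs of Sema3c plus Unc5d. It also had fewer than 2 UMIs of Eomes, fewer than 2 of the deep-layer factors Bcl11b, Fezf2, Tle4 and Foxp2 together, at most 1 of the interneuron enzymes Gad1 and Gad2, and fewer than 3 of the cycling genes Mki67, Top2a and Cenpf. The rule took 879 cells, 532 from WT and 347 from cKO, of 12846 kept cells (500 or more detected genes, a mitochondrial share no higher than 10%) and of 19913 barcodes in all. Both libraries were made from telencephalic tissue of C57BL/6 mice at postnatal day 0, which the study's methods describe as cerebral cortex. STING is an adaptor of cytosolic DNA sensing, and Nestin-Cre deletes floxed alleles in neural progenitors and in what descends from them, so microglia, which come from elsewhere, are not its target. How many animals were pooled in a library was not given. The label calls the control WT, the study's text calls it both STINGfl/fl and wild type, and no Cre is named for it.

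Projection neurons of the cortex are born from radial glia, mostly by way of Eomes-expressing intermediate progenitors, and migrate along radial fibres through the intermediate zone to the cortical plate. On the way they exchange a multipolar for a bipolar shape and read semaphorin, netrin, ephrin and reelin cues. Those that reach the upper layers last are still on the move at birth, and Unc5d, a netrin and FLRT receptor, and Sema3c, a secreted semaphorin, are known from the multipolar and late migrating stages.

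The kept cells had a median of 6653 UMIs in WT and 7629 in cKO, and the chosen neurons 5756.5 (767 to 48202) and 6914 (847 to 50241). A Xist UMI was present in 2 of 532 WT and 347 of 347 cKO neurons, and a UMI of the Y-linked genes Ddx3y, Eif2s3y, Kdm5d or Uty in 359 and 0, so sex and genotype cannot be told apart. The libraries shared 19 barcodes, 8 of them among kept cells and 4 among the cKO neurons described here (0 among the WT ones). With 1 library per genotype no difference had a replicate check and none was tested. The 95% intervals in parentheses cover counting error only, and no p-value is given.

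The deleted gene could not be checked in these neurons. Tmem173, which encodes STING, had 1 UMI in all WT neurons (0.275 counts per 1000000 UMIs, CPM, 0.00697–1.53) and 0 in the cKO neurons (at most 1.34 CPM). A loss was not detectable at this depth. In microglia-type cells, chosen by at least 3 UMIs of C1qa, C1qb and C1qc, the level was 31.3 CPM (19.9–47.0) in WT and 6.35 (1.31–18.6) in cKO. Mb21d1, which encodes the DNA sensor cGAS, also had 0.275 CPM in the WT and 0 in the cKO neurons. Of the 14 listed genes of cytosolic DNA sensing, 7 had enough UMIs to compare and 0 of these differed by more than 2-fold between the libraries, beside 4.02% higher and 14.3% lower of all 8820 comparable genes, so 0 of 7 was near the general rate. The list held Tbk1, a kinase downstream of STING, at 8.54 and 16.4 CPM.

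The neurons made up 7.86% (7.23–8.53) of kept cells in WT and 5.71% (5.14–6.32) in cKO, a difference of -2.16 percentage points (-3.03 to -1.28). Among projection neurons without deep-layer factors, chosen by the same rule without Sema3c and Unc5d, they were 21.8% (20.2–23.5) of 2442 cells in WT and 14.8% (13.4–16.3) of 2346 in cKO, although that larger class was 36.1% of kept WT and 38.6% of kept cKO cells. The share was lower in cKO at every minimum from 1 to 8 UMIs of Sema3c plus Unc5d, with 17.1% against 15.8% at 1 UMI and 1.39% against 0.559% at 8. It was also lower with every cell thinned to 3000 UMIs, where 5.57% of WT and 3.00% of cKO cells met the minimum of 3. These shares all rest on Sema3c and Unc5d, which were both lower in cKO over that larger class (log2 ratios of -0.32 and -1.13). Fewer such cells and less RNA of these 2 genes per cell cannot be told apart by the shares. Eomes cells had at least 2 Eomes UMIs, at most 1 of Gad1 and Gad2 and fewer than 3 of the cycling genes, so cycling intermediate progenitors were left out. They were 2.32% of WT and 2.42% of cKO cells, a difference of 0.0973 points (-0.439 to 0.640). The difference in the share of migrating neurons changed sign under a stricter limit on mitochondrial RNA. Among cells with at most 5% mitochondrial UMIs the share was 6.21% (110 of 1771 cells) in WT and 6.61% (98 of 1483) in cKO, a difference of 0.397 points (-1.33 to 2.15). By mitochondrial share, the cKO share was lower in 5 of 6 ranges. It was 5.27% in WT and 4.33% in cKO above 2% and up to 4% (-0.94 points, with an interval from -3.33 that held 0), 59 of 951 WT and 22 of 497 cKO cells up to 5% (-1.78, -4.15 to 0.86), and 10.4% and 4.92% up to 6% (-5.51, -7.67 to -3.21), the widest difference. Up to 8% it was 8.09% and 6.25% (-1.84, -3.27 to -0.40) and up to 10% it was 5.76% and 4.27% (-1.49, -3.66 to 0.47). Up to 2% the shares were 13.1% of 99 WT and 13.5% of 363 cKO cells (0.37, -8.56 to 7.51), and this range held 363 of the 1483 cKO but 99 of the 1771 WT cells within the 5% limit. The WT neurons within the 5% limit also carried more RNA of radial glia and astrocyte markers, with a summed level of 7341 CPM against 549 in cKO, beside 2125 and 497 in all the neurons. The part of mitochondrial RNA and of these markers in the difference was not tested.

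**Figure D1:**
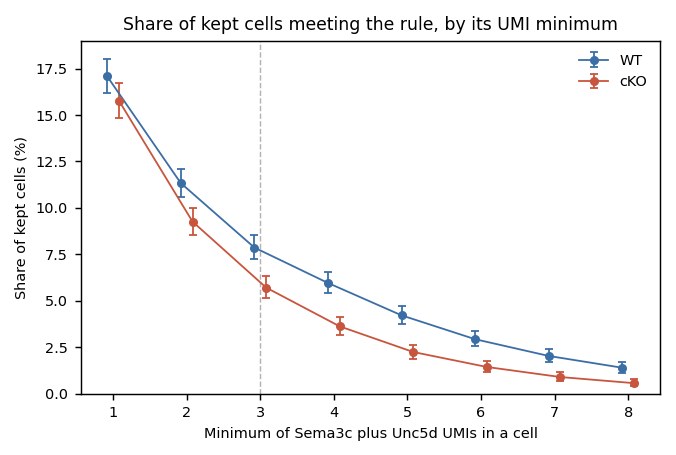
Share of kept cells (%) that met every other criterion of the rule, by the minimum number of Sema3c plus Unc5d UMIs, for the WT (blue) and the cKO library (red), with Clopper-Pearson 95% intervals and a dashed line at the minimum of 3. The cKO share lies below the WT share at each minimum, from 15.8% against 17.1% at 1 UMI to 0.559% against 1.39% at 8 UMIs. Each minimum rests on the same genes, which were both lower in cKO.

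The genes that chose the cells are given here as a description. Sema3c (chromosome 5, 17574281 to 17730268, plus strand) stood at 519 CPM (495–542) in the WT and 486 (460–512) in the cKO neurons. Unc5d (chromosome 8, 28646717 to 29219636, minus strand) stood at 278 (261–296) and 118 (105–131). It overlaps the transcript Svet1 on the same strand, and the reads of these genes may not have been told apart. In the 2442 WT and 2346 cKO projection neurons chosen without either gene, Sema3c was 108 and 86.6 CPM (log2 ratio of cKO over WT -0.32, -0.41 to -0.23) and Unc5d 73.7 (70.0–77.5) and 33.6 (31.2–36.2), a log2 ratio of -1.13. Both were lower in cKO, Unc5d by more than 2-fold and Sema3c by less. A median of 5 Sema3c plus Unc5d UMIs was counted per WT neuron and 4 per cKO neuron, with maxima of 24 and 20.

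Nrp1 (chromosome 8, 128358604 to 128503363, plus strand), the neuropilin that binds class III semaphorins with plexins, is the marker of this cell type that the rule did not use. It stood at 509 CPM (486–533) in the WT and 373 (350–396) in the cKO neurons. In other projection neurons, which met the same rule but had 0 UMIs of Sema3c and Unc5d (1286 WT and 1387 cKO cells), it was 131 and 108 CPM. Deep-layer type neurons (602 and 689 cells) had at least 2 UMIs of the deep-layer factors, fewer than 3 of Sema3c plus Unc5d and otherwise the limits of the rule. Like the other projection neurons, they were thus chosen for few UMIs of these 2 genes. Nrp1 was 128 and 141 CPM in them, and in Eomes cells (157 and 147) 108 and 37.2. The migrating neurons therefore had the highest level of the 4 populations in both libraries, and their intervals overlapped with those of none of the others. Just outside the rule, cells with 2 UMIs of Sema3c plus Unc5d had 213 (WT) and 232 (cKO) CPM of Nrp1, and just inside, cells with 3 had 377 and 339. Mef2c, a factor of maturing neurons, ran the other way across the same edge, from 1617 to 1101 CPM in WT and from 810 to 300 in cKO.

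Set against other projection neurons, the cells had more RNA of genes of the newborn state and less of Mef2c. Of 9984 genes with at least 50 UMIs in the migrating and other projection neurons of each library, 133 (1.33%) were more than 2-fold higher and 351 (3.52%) more than 2-fold lower in the migrating neurons in both libraries. Among the 16 comparable genes of intermediate progenitors and newborn neurons, 8 were higher and 1, Gadd45g, was lower, with a median log2 ratio of 1.01 in WT and 1.16 in cKO, beside 0.03 and 0.05 for all genes. Insm1, a zinc finger factor of delaminating progenitors, was 394 (374–415) and 474 (449–501) CPM in the migrating neurons and 94.5 and 124 in the other neurons. Igfbpl1, an insulin-like growth factor binding protein of newborn neurons, was 2476 and 2599 CPM against 511 and 765. Sstr2, a somatostatin receptor, was 111 and 160 CPM against 11.6 and 22.1. The other 5 higher genes were Neurod1, Neurog2, Sox11, Elavl2 and Mfap4, the last of which was at -0.01 in cKO among cells with at most 5% mitochondrial UMIs, where 5 of 12 genes of the list were higher and 1 lower, beside 39 and 200 of all 5029 comparable genes. Neurod1, the proneural factor that follows Eomes, stood at 149 and 255 CPM against 60.2 and 33.7, and Sox11, a factor of early neuronal differentiation, at 4169 and 5595 against 1716 and 2483.

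With every cell thinned to 3000 UMIs, an Insm1 UMI was found in 63.7% (59.4–68.0) of 502 WT and 67.4% (62.0–72.5) of 322 cKO migrating neurons, and in 25.1% and 29.8% of other projection neurons. In thinned microglia-type cells, which should lack the gene, it was found in 2 of 55 and 1 of 31 cells. Nrp1 UMIs were found in 62.2% and 53.7% of the thinned migrating neurons and in 22.6% and 21.6% of the other projection neurons. Nrp1 is also made by microglia, so those cells gave no background for it. Leaving out shallower cells removed 30 WT and 25 cKO neurons.

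**Figure D2:**
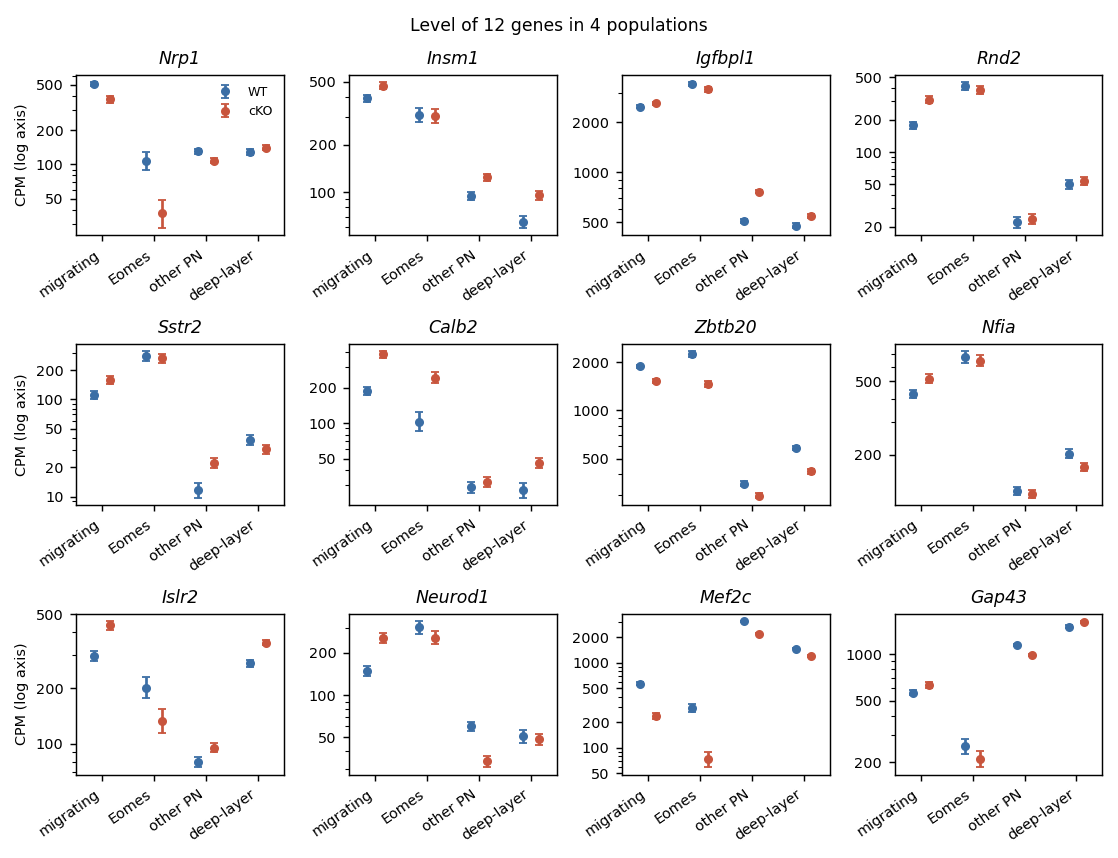
Level of 12 genes (CPM, log axes that differ between panels) in the migrating newborn projection neurons, Eomes cells, other projection neurons (other PN) and deep-layer type neurons of the WT (blue) and the cKO library (red), with exact Poisson 95% intervals. Nrp1 is highest in the migrating neurons (509 and 373 CPM), Insm1, Igfbpl1, Zbtb20 and Nfia lie within 2-fold of the Eomes cells, and Mef2c and Gap43 are lower than in other projection neurons.

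Among regulators of actin and small GTPases in radial migration, 1 of 18 was past 2-fold over the other projection neurons and 0 lay below. This was Rnd2 (chromosome 11, 101464999 to 101471853, plus strand, with Vat1 overlapping on the other strand), an atypical small GTPase that is needed to leave the multipolar stage. It was 178 (165–193) and 311 (290–332) CPM in the migrating neurons, 22.0 and 23.7 in the other neurons and 415 and 380 in Eomes cells. Its log2 ratio over the other neurons was 3.02 (2.81 to 3.23) in WT and 3.71 (3.52 to 3.90) in cKO. Of 21 microtubule and nucleokinesis proteins 0 passed 2-fold in either direction, which is near the shares over all genes (1.33% higher and 3.52% lower), and Dcx, the microtubule protein of migrating neurons, was 606 and 684 CPM against 415 and 545. Stmn2 was 1740 and 1578 CPM against 2787 and 2391 and Mapt, which encodes tau, 990 and 935 against 1573 and 1427, and the median log2 ratio of the list was -0.07 in WT and -0.20 in cKO, beside 0.03 and 0.05 for all genes.

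Guidance receptors were uneven, and their counts stand beside 1.33% higher and 3.52% lower over all genes. In the semaphorin, neuropilin and plexin list 2 of 11 genes, both neuropilins, were past 2-fold higher and 0 lower. Nrp2 was 29.5 (24.1–35.6) and 67.7 (58.3–78.2) CPM in the migrating and 9.56 and 9.17 in the other neurons, but among cells with at most 5% mitochondrial UMIs its log2 ratio was -0.14 in WT and 0.84 in cKO, while the plexin Plxna4 was 181 and 139 against 171 and 157. In the netrin, slit and FLRT list 2 of 12 genes were higher, the netrin receptor Dcc (15.7 and 12.4 CPM against 5.55 and 5.53) and the secreted Slit3 (7.71 and 9.83 against 2.73 and 2.35), and 1 was lower, the netrin receptor Unc5c (17.1 and 9.83 against 34.8 and 29.8). These counts did not hold without cells that carried marker UMIs of other cell types, where the list had 0 higher and 2 lower of 11 genes. Of all 9303 comparable genes, 225 were higher and 288 lower in that setting. In the ephrin list 2 of 14 were higher and 1 lower. Epha4, an Eph receptor of migrating neurons, was 281 and 374 CPM against 135 and 161, Ephb1 was 115 and 96.5 against 30.4 and 31.4, and the ligand Efna5 was 13.5 and 9.47 against 28.3 and 23.0, with log2 ratios that turned to 0.12 and 0.28 under the mitochondrial limit. There Ephb1 was at 0.74 and Dcc at 0.70 in cKO, so these calls did not hold either.

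At the main settings, reelin receptors and their adaptor also diverged. Lrp8, a reelin receptor, was 173 (160–187) and 233 (215–252) CPM in the migrating neurons against 82.0 and 80.3, and was the 1 of 11 genes of reelin and Cdk5 signalling past 2-fold higher, beside 1.33% higher and 3.52% lower over all genes. The other receptor, Vldlr, was 30.8 and 42.2 CPM against 55.6 and 61.8, and the adaptor Dab1 was 179 and 96.8 against 296 and 292. Over the alternatives run, the log2 ratio of Vldlr ran from -1.27 to 0.23 in WT and from -0.69 to 0.45 in cKO, so its direction did not hold. Cdk5r2, which encodes the Cdk5 activator p39, was the 1 gene past 2-fold lower, at 31.1 and 18.6 CPM against 79.4 and 48.0. Neither call held among cells with at most 5% mitochondrial UMIs, where Lrp8 was at 0.80 and 0.97 and Cdk5r2 at -0.97 and -0.62. There 0 of 9 genes of the list passed, beside 39 higher and 200 lower of all 5029 comparable genes. In the adhesion list Cdh4, a cadherin, was the 1 gene of 17 past 2-fold higher, and Cdh13, Cntn1 and Nrcam were the 3 lower, with 0 higher and 1 lower of 10 under that limit. Among chemokine and morphogen receptors, 1 of 11 was higher, Fgfr1 at 90.0 and 95.8 CPM against 26.8 and 29.1, and 1 lower, the neurotrophin receptor Ntrk2 at 63.9 and 40.1 against 169 and 121. Under the same limit 0 of 5 were higher and 1 lower, and Fgfr1 was at 0.59 and 0.43. The counts of this and the adhesion list under that limit stand beside the same 39 and 200 of 5029.

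Transcription factors gave a mixed picture with 5 of 26 past 2-fold higher and 1 lower than in the other neurons, beside 1.33% and 3.52% of all genes. Zbtb20 was 1882 (1838–1927) and 1526 (1480–1573) CPM against 351 and 296, Nfia 427 and 517 against 127 and 123, and Nfib 2376 and 3441 against 607 and 1236. The nuclear factors Nfia and Nfib and the repressor Zbtb20 are known from late cortical progenitors and the hippocampus. The other higher factors were the cortical patterning genes Emx2 and Lhx2, and Emx2 was at 0.52 (WT) and -0.30 (cKO) under the mitochondrial limit. Under that limit Nfia was at 0.47 and 0.64 and Zbtb20 at 1.41 and 0.83, so neither stayed past 2-fold in both libraries. The list as a whole had 6 higher and 2 lower of 25 there, beside 39 and 200 of all 5029 comparable genes. Mef2c (chromosome 13, 83504034 to 83667080, plus strand) was the lower one, at 564 (540–589) and 235 (217–254) CPM against 3073 and 2192. Of 26 synapse and maturation genes 1 was past 2-fold higher, the glutamate transporter Slc17a6, and 0 lower. Over the alternatives run its log2 ratio fell to 0.81 in cKO. The list had 0 higher and 1 lower of 26 at a minimum of 5 UMIs of Sema3c plus Unc5d, beside 145 and 439 of all 9785. Without cells carrying marker UMIs of other types it had 1 higher and 3 lower of 26, beside 225 and 288 of all 9303. Over all genes, the order by the smaller ratio of both libraries, taken on CPM + 10 so that genes of low level ranked lower, began with Rnd2, Sstr2, Calb2 (187 and 383 CPM against 28.4 and 31.8), Zbtb20 and Pcp4 (159 and 159 against 28.9 and 13.3). Rasgef1b, at 30.3 and 51.0 CPM, was the 13th in this order, although its log2 ratios of CPM were 3.11 and 2.97. Calb2 and Pcp4 encode calcium and calmodulin binding proteins.

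**Figure D3:**
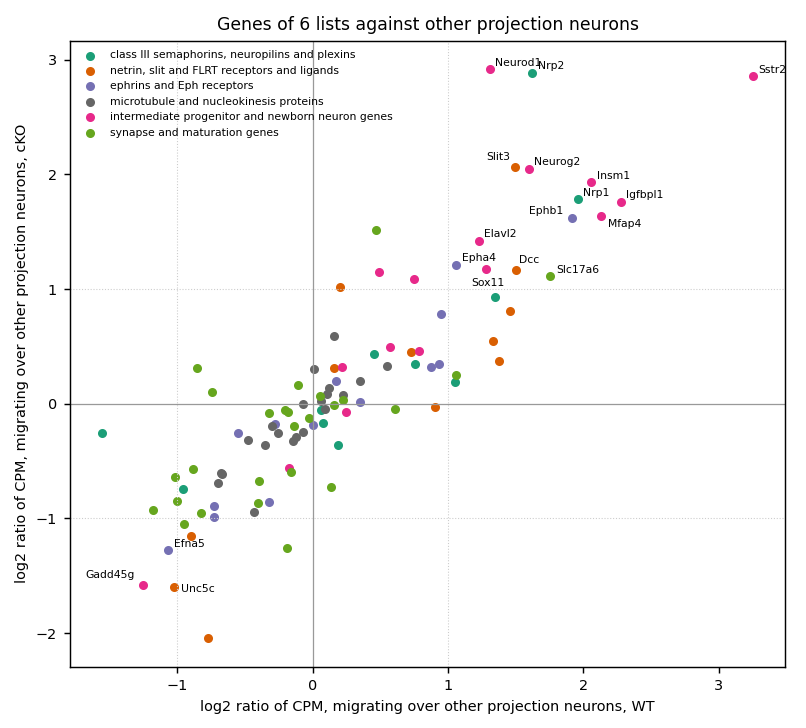
Log2 ratio of CPM in the migrating over other projection neurons, with the WT library on the x axis and the cKO library on the y axis, for the comparable genes of 6 lists given by colour. Named genes passed 2-fold in both libraries (dotted lines at 1 and -1). The 8 higher genes of intermediate progenitors and newborn neurons lie at the upper right, with Sstr2 at 3.25 and 2.86, and the microtubule proteins lie near 0.

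On the same scale the genes with lower levels than in the other projection neurons were led by Mef2c, Gucy1a3 (25.6 and 7.65 CPM against 150 and 75.4), which encodes a guanylate cyclase subunit, the complement gene C1qb and the adaptor Sla (28.6 and 10.9 against 134 and 81.1). Microglia markers made up 6 of the 351, all 6 comparable genes of that list, with summed levels of 4.96 and 2.91 CPM in the migrating and 129 and 102 in the other neurons. At these levels they reached the UMI minimum through the other neurons, so the direction of this count was set by the filter. Endothelial markers added 4 of 5. In cKO, at a summed 5.83 CPM in the migrating neurons, these too reached the minimum through the other neurons. Blood markers stood at 13.2 and 2.91 CPM against 1945 and 4.17. Cells were also left out by marker UMIs of radial glia, endothelial cells, microglia, oligodendrocyte precursors and Reln, but not by blood markers. All 32 WT and 13 of 15 cKO migrating neurons left out had at least 10 UMIs of the radial glia list. Without such cells, 79 of 131 ratios over the other projection neurons stayed within their intervals, 48 moved outside and 4 past 2-fold changed sign. Sepp1, a selenoprotein that microglia also make, turned to a log2 ratio of 0.48 (WT) and 0.85 (cKO).

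Set against the Eomes cells, the same neurons had more RNA of maturation genes. Of 7159 comparable genes 190 (2.65%) were more than 2-fold higher and 126 (1.76%) more than 2-fold lower in the migrating neurons in both libraries. In the synapse and maturation list 8 of 23 were higher and 1 lower, with medians of 0.74 (WT) and 1.24 (cKO) beside 0.02 and -0.02 for all genes. Of 21 microtubule proteins 4 were higher and 0 lower, namely Map1b (1456 and 1457 CPM against 634 and 352), Mapt, Stmn2 and Stmn4. Of 25 transcription factors 4 were higher and 0 lower, among them Bcl11a (716 and 301 CPM against 344 and 121), Bhlhe22 and Pou3f1. Dscam, Flrt3 and Robo1 were the 3 of 9 higher genes of the netrin, slit and FLRT list, with 0 lower. Cntn2, the adhesion protein TAG-1 of migrating neurons and early axons, was 180 and 190 CPM against 40.2 and 19.7.

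The genes lower than in Eomes cells included genes of the progenitor state. In the intermediate progenitor and newborn neuron list 5 of 16 were lower (1.76% of all genes) and 0 higher, namely Btg2, Elavl4, Gadd45g, Mfap4 and Neurog2. Btg2, which marks neurogenic divisions, was 39.1 and 20.4 CPM in the migrating neurons against 280 and 251, and the proneural factor Neurog2 was 16.8 and 20.4 against 118 and 84.9. Pax6, Sox2 and Vim were the 3 lower radial glia genes of 11, and 0 were higher. The summed level of that list was above that of the Eomes cells in WT (2125 against 1843 CPM) and below it in cKO (497 against 1833). Its median log2 ratio was -0.08 in WT and -1.82 in cKO. Insm1, Igfbpl1, Rnd2, Sstr2 and Sox11 were not past 2-fold lower in both libraries.

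The neurons were not alike among themselves. Of the WT neurons 127 (23.9%, 20.3–27.7) had Sema3c without Unc5d, 49 (9.21%) Unc5d without Sema3c and 356 (66.9%, 62.7–70.9) both. In cKO these were 161 (46.4%, 41.1–51.8), 12 (3.46%) and 174 (50.1%, 44.8–55.5). Unc5d, which defines these groups with Sema3c, was lower in cKO, so a group may not hold like cells in both libraries. Nrp1 was 903 CPM in WT neurons with Sema3c alone, 434 with both and 207 with Unc5d alone, and 505, 267 and 108 in cKO, so the order was the same in both libraries. Zbtb20 had this order too, at 3189, 1721 and 539 CPM in WT and 2072, 1096 and 371 in cKO, and so did Calb2 at 433, 131 and 35.4 in WT and 501, 293 and 102 in cKO. The neurons with Unc5d alone had the most Mef2c (1368 CPM in WT, 867 in cKO) and the least Insm1 (170 and 126) and Neurod1 (37.1 and 5.98), and their median depth was the highest (8437 and 9320.5 UMIs). Pou3f2, the upper-layer factor BRN2, was highest in neurons with both genes (955 and 704 CPM), as was Meis2, a homeobox factor (1869 and 945). Genes named for this split and the next were chosen after their values were seen.

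Neurod1 (chromosome 2, 79452521 to 79456751, minus strand, within Cerkl on the same strand) divided the neurons again. A Neurod1 UMI was found in 205 of 532 WT neurons (38.5%, 34.4–42.8) and 167 of 347 cKO neurons (48.1%, 42.8–53.5), and after thinning in 25.9% (22.1–30.0) and 32.9% (27.8–38.3), beside 1 of 55 and 1 of 31 microglia-type cells. Cells with it were the deeper ones, with medians of 5977 against 5662 UMIs in WT and 7529 against 6286.5 in cKO. Calb2 was 318 and 98.1 in WT and 503 and 226 in cKO, Pcp4 264 and 87.9, and 222 and 76.2, and Crym, a thyroid hormone binding protein, 78.9 and 22.2, and 121 and 24.3. The neurons without Neurod1 had more Dab1, at 219 against 120 CPM in WT and 146 against 59.3 in cKO, more of the neuropeptide gene Cck, at 239 against 88.4 and 131 against 63.8, and more of the radial glia genes Fabp7 and Slc1a3. Of the 3395 WT Fabp7 UMIs, 1504 came from 2 cells.

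**Figure D4:**
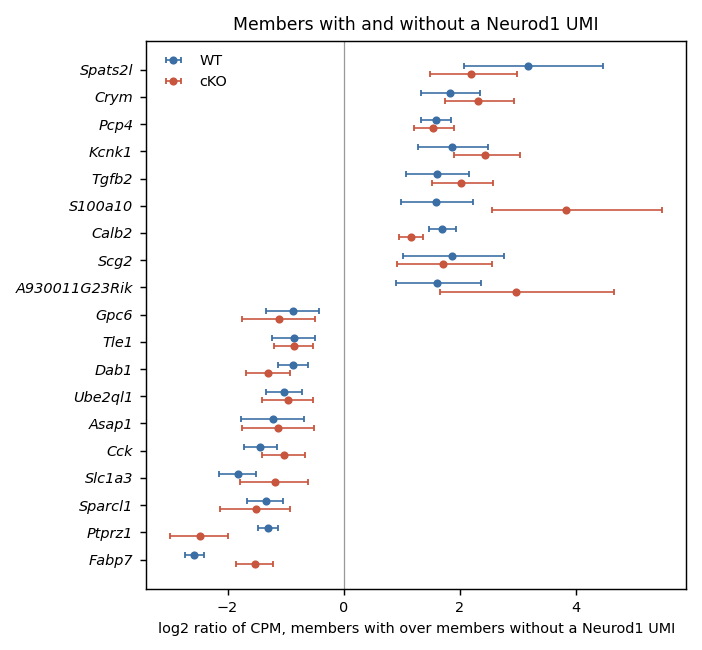
Log2 ratio of CPM in migrating neurons with over those without a Neurod1 UMI, for 19 of the genes furthest above or below 0 in both libraries, with 95% counting intervals, in WT (blue) and cKO (red). Calb2, at 1.70 in WT and 1.15 in cKO, and Pcp4, at 1.59 and 1.54, lie to the right, and Dab1, at -0.87 and -1.30, lies to the left.

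Between the libraries, 355 of 8820 comparable genes (4.02%) were more than 2-fold higher and 1263 (14.3%) more than 2-fold lower in the cKO neurons, with a median log2 ratio of -0.09 over all of them. Scaling by TMM factors raised every ratio by 0.09 and gave 484 higher and 1101 lower. Projection neuron transcription factors had 1 higher and 6 lower of 26, with a median of -0.17, and 2 higher and 2 lower of 22 among cells with at most 5% mitochondrial UMIs, where 290 and 404 of all 4008 comparable genes were. Cux2, an upper-layer factor, was 144 CPM (132–157) in WT and 51.3 (43.2–60.5) in cKO, a log2 ratio of -1.49 (-1.77 to -1.22), beside -1.05 in other projection neurons and -0.92 in deep-layer type neurons. Bcl11a, a zinc finger factor of projection neuron identity, was 716 and 301 CPM (-1.25, -1.37 to -1.14), beside -0.53. Bhlhe22, at 444 and 218 CPM (-1.02), and Rorb, a layer 4 factor at 45.2 and 22.6, were beside -1.33 and -1.17 in the other neurons, and Rorb was at 0.28 at a minimum of 5 UMIs of Sema3c plus Unc5d. Emx1 was the higher one, at 78.8 and 190 CPM (1.27, 1.06 to 1.48), beside 1.02.

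Cux2 was lower in the cKO neurons in each of the groups above. Groups by Sema3c and Unc5d rest on genes of the rule, and Unc5d was lower in cKO, so they may not hold like cells in both libraries. The log2 ratio of Cux2 was -1.68 (-2.23 to -1.14) with Sema3c alone, -1.21 (-1.56 to -0.87) with both genes and -1.24 (-2.43 to -0.24) with Unc5d alone, and -1.74 with and -1.18 without Neurod1. After thinning, a Cux2 UMI was found in 35.7% (31.5–40.0) of WT and 16.1% (12.3–20.6) of cKO neurons, beside 2 of 55 WT and 0 of 31 cKO microglia-type cells (a count of 0 allows up to 11.2%), and before thinning in 54.3% and 32.0%. Over all alternatives run the ratio stayed between -1.55 and -1.19. Bcl11a was lower in the same groups, at -1.16 (-1.34 to -0.98), -1.45 (-1.62 to -1.28) and -0.79 (-1.22 to -0.38). Mef2c was 564 and 235 CPM (-1.26, -1.39 to -1.13), but this did not hold among the neurons richest in Sema3c and Unc5d, where at a minimum of 5 UMIs the ratio was 0.023. Tbr1, a factor of early projection neurons, was 161 CPM in both libraries (0.00, -0.18 to 0.18), but its ratio was -0.45 (-0.71 to -0.20) with and 0.43 (0.17 to 0.69) without Neurod1. By the other split it was 0.04 (-0.36 to 0.44) with Sema3c alone, 0.14 (-0.08 to 0.37) with both genes and 0.88 (0.26 to 1.49) with Unc5d alone.

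Several named genes from different lists had a higher level in the cKO than in the WT neurons, beside lower ratios in the other projection neurons. Neurod1 was 149 (137–162) and 255 (236–274) CPM (0.77, 0.61 to 0.94), beside -0.84 in the other neurons and -0.24 in Eomes cells, and its ratio was 0.42 (0.20 to 0.65) with Sema3c alone and 0.32 (0.05 to 0.59) with both genes, but -2.63 with Unc5d alone, from 21 WT and 1 cKO UMIs, with an interval that reached 0.0023. Rnd2 was 178 and 311 CPM (0.80, 0.65 to 0.95), beside 0.11 and -0.13, and lay above 0 with Sema3c alone (0.58, 0.33 to 0.84) and with both genes (0.70, 0.51 to 0.90), and was 1.22 (-0.04 to 2.42) with Unc5d alone. Calb2 was 187 and 383 CPM (1.03, 0.89 to 1.17), beside 0.16 and 1.24, with 0.21 (0.03 to 0.40) with Sema3c alone and 1.16 (0.93 to 1.39) with both and 1.52 (0.50 to 2.53) with Unc5d alone. Nrp2 was 1.20 (0.85 to 1.56), beside -0.06 in the other neurons. It was 0.66 (0.23 to 1.11) with Sema3c alone and 0.88 (0.09 to 1.67) with both, had 15 WT and 0 cKO UMIs with Unc5d alone, and was 1.30 with but -0.32 (-1.18 to 0.49) without Neurod1. The cells with Sema3c alone, 46.4% of the cKO and 23.9% of the WT neurons, had the most Neurod1, Calb2 and Nrp2, and the part of this makeup in the ratios was not tested. Among cells with at most 5% mitochondrial UMIs the ratios were 0.42 for Neurod1, 0.22 for Rnd2, 0.58 for Calb2 and 1.04 for Nrp2. Cxcr4, the Cxcl12 receptor of migrating neurons, was 5.51 and 28.0 CPM, from 20 UMIs in 16 WT and 77 UMIs in 48 cKO cells (2.35), beside 0.25, and at 0.94 under that mitochondrial limit. In the newborn neuron list as a whole 0 were past 2-fold higher and 1 of 16 lower, beside 4.02% and 14.3% of all genes, namely Elavl4 at 186 and 47.7 CPM (-1.96), which was -1.89 in the other neurons. With 1 library each, the differences between populations were not tested.

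**Figure D5:**
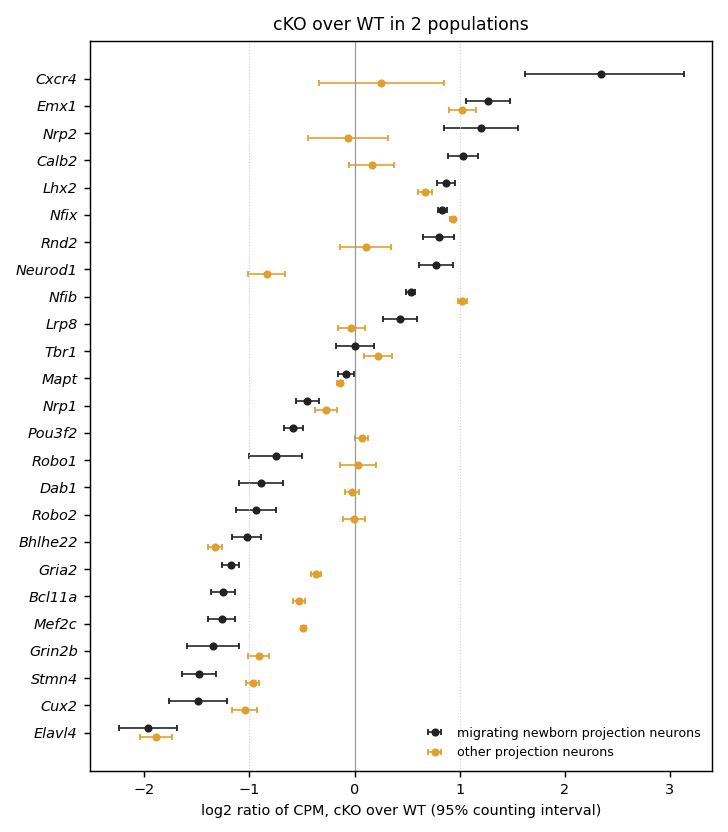
Log2 ratio of CPM, cKO over WT, with 95% counting intervals, for 25 genes in the migrating newborn projection neurons (black) and in other projection neurons (orange). Cxcr4, Nrp2, Calb2, Rnd2 and Neurod1 stand further right in the migrating than in the other neurons, Robo1, Robo2 and Dab1 further left, and Cux2, Grin2b, Stmn4 and Elavl4 to the left in both.

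Guidance and reelin genes are given beside 4.02% higher and 14.3% lower over all genes. Semaphorin, neuropilin and plexin genes had 1 higher (Nrp2) and 2 lower (Plxna3 and Plxnb2) of 11, the netrin, slit and FLRT list 0 and 1 (Flrt2) of 12, the ephrin list 0 and 1 (Epha7) of 13 and the reelin and Cdk5 list 0 and 0 of 11. Nrp1 was at a log2 ratio of -0.45 (-0.56 to -0.34), and over the alternatives run it lay between -0.56 and -0.13. By group it was -0.84 with Sema3c alone, -0.70 with both genes and -0.94 with Unc5d alone. The slit receptors Robo1, at 114 and 67.7 CPM (-0.75, -1.01 to -0.50), and Robo2, at 224 and 117 (-0.94, -1.13 to -0.75), were lower in the cKO neurons, beside 0.03 and -0.01 in the other projection neurons and -1.57 and -1.42 in Eomes cells. Dab1 was 179 and 96.8 CPM (-0.89, -1.10 to -0.68), beside -0.02, and Lrp8 173 and 233 (0.43, 0.27 to 0.59), beside -0.03. Over the alternatives run, the Dab1 ratio lay between -1.33 and -0.06, the latter among cells with at most 5% mitochondrial UMIs, and it was -1.06 with Sema3c alone, -0.65 with both genes and -0.23 (-0.77 to 0.28) with Unc5d alone.

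The counts of the next lists were near the shares over all genes (4.02% higher and 14.3% lower). Microtubule genes were 0 higher and 2 lower of 21. Among cells with at most 5% mitochondrial UMIs they were 1 higher and 1 lower of 21, beside 290 and 404 of all 4008 genes. Dynll1, a dynein light chain, was 1282 and 227 CPM (-2.50), beside -2.32 in the other neurons. Stmn4 was 397 and 142 (-1.48), beside -0.97, and over the alternatives run its ratio came up to -0.83, within 2-fold. Actin regulators were 0 and 0 of 18. In the adhesion list 2 of 16 were lower, Cdh11 and Chl1, and in the synapse list 4 of 24, namely the glutamate receptor subunits Gria2 (1261 and 557 CPM, -1.18, beside -0.37) and Grin2b (162 and 63.7, -1.35, beside -0.91), the neurofilament Nefl and the neurexin Nrxn3. Under the mitochondrial limit 0 of 15 genes of the synapse list were lower, near the rate of all genes there (404 of 4008), and Nefl was at 0.42. Gria2 was lower with Sema3c alone (-1.20), with both genes (-1.21) and with Unc5d alone (-0.77).

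Markers of other cell types moved with these ratios. Of 11 comparable radial glia and astrocyte markers 8 were past 2-fold lower in the cKO neurons (14.3% of all genes) and 0 higher, with a summed level of 2125 CPM in WT and 497 in cKO. Among neurons with at most 5% mitochondrial UMIs 9 of 9 were lower, beside 404 of all 4008 comparable genes. The sums there were 7341 CPM in WT and 549 in cKO. Genes of the list could thus reach the UMI minimum through WT, so this count was partly set by the filter. The WT neurons kept by that limit carried more of this RNA than the WT neurons as a whole. Endothelial markers were 3 lower of 3, with sums of 115 and 5.83 CPM, so they reached the UMI minimum through WT. Of the 168 WT UMIs of Cldn5, a tight junction protein of vessels, 160 lay in 2 cells. Without the 32 WT and 15 cKO neurons that carried marker UMIs of other types, radial glia markers were 3 lower of 9 with sums of 488 and 247 CPM, and 0 endothelial markers had enough UMIs. All 32 WT and 13 of these cKO neurons had at least 10 UMIs of the radial glia list, so the lower sums followed from the exclusion. Cajal-Retzius markers were 2 higher of 2, Calb2 and Reln, beside 4.02% of all genes. Reln had 15 UMIs in WT, so it reached the minimum through cKO. Of its 150 cKO UMIs 146 lay in 2 cells, without which its ratio was -1.30. Without the neurons that carried marker UMIs of other types, 76 of 92 ratios between the libraries stayed within their intervals. Of the rest 14 moved outside, and 2 past 2-fold changed sign, with 9 of the 92 moving by over 1.5 times. The ratio of Cux2 was -1.51 without them.

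Several of the genes with the largest ratios between the libraries had like ratios in other neurons. Gm8730, a predicted gene, was 26.7 and 674 CPM, a log2 ratio of 4.66 in the migrating and 4.64 in the other projection neurons, and whether a near-identical copy shares its reads was not tested. Coa3 and Mrpl14, both mitochondrial proteins, were at -2.76 and -3.60, beside -2.60 and -3.35, and Fam136a at -4.22 beside -4.68. Pantr1, a long noncoding RNA next to Pou3f3, was 1155 and 143 CPM (-3.01, -3.17 to -2.86), beside -1.31, and Ezh2, the Polycomb methyltransferase, 144 and 14.6 (-3.31, -3.81 to -2.84), beside -2.01. Dusp14, a dual specificity phosphatase, was 15.1 and 76.5 CPM (2.34, 1.90 to 2.79), beside 0.82, and its lowest ratio over the alternatives was 1.41, with at least 1000 genes and up to 5% mitochondrial UMIs per cell. Tac2, a tachykinin gene of Eomes cells here (133 and 211 CPM), was 1.93 and 25.9 in the migrating neurons, with 50 of the 71 cKO UMIs in 2 cells.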

How the data were processed

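The study captured dissociated newborn cortex with 10x Genomics Chromium, 1 library per genotype. The authors deposited raw UMI counts per gene and barcode for 27998 genes, written per the file headers by Cell Ranger 3.0.1. The submitters' processing notes list STAR, Cell Ranger 2, Seurat and the build mm9. The strand used in counting is not given in the sources used here, so overlapping genes may share reads. Positions are those of GENCODE M21 (GRCm38), in which 329 of 330 named genes were found by identifier. The authors' combined table and their marker table of comparisons between clusters were not used.

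The cell filter asked for 500 or more genes and a mitochondrial share up to 10%. Counts were summed per population and library (numpy 2.4.6, scipy 1.17.1) and given as CPM with exact Poisson 95% intervals. Ratios carry exact conditional binomial intervals and shares Clopper-Pearson intervals, and the interval of a difference combines those of both shares. All cover counting error only. Depth was 3631422 UMIs in the 532 WT and 2746546 in the 347 cKO neurons. A gene was comparable with at least 50 UMIs over both libraries in the neurons, or, between populations, with at least 50 in each library. The scripts were tested on simulated data. Thinning drew 3000 UMIs per cell. Doublets were kept: Scrublet (scanpy 1.11.5) at its automatic threshold marked 165 WT and 0 of 6080 cKO cells, so it had not worked in cKO. TMM factors came from edgeR 4.0.16 (scaling alone).

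The neurons and the gene lists were chosen with earlier results of these data known. All genes of the lists could be named. Further genes were the 10 highest and 10 lowest cKO over WT ratios of CPM + 10 (50 or more UMIs in 1 of the libraries, intervals that did not overlap), the 15 highest and 10 lowest over other projection neurons, and the 8 highest and 8 lowest over Eomes cells by the smaller ratio of both libraries. Genes of the rule, mitochondrial, haemoglobin and sex-linked genes were left out. Alternatives changed the cell filter, doublets, Sema3c plus Unc5d minimum, scaling, depth and UMI minimum of a gene. Results for some genes are not reported here.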

Additional observations from a re-analysis of the deposited data

How the results depend on the processing

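No paired analysis was possible because each genotype had 1 library. There was no replicate to leave out. Settings on single cells, doublet scores, each cell filter alone and markers of other types were chosen after seeing the data.

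The difference in share (-2.16 points) turned to 0.355 with at least 1000 genes and at most 5% mitochondrial UMIs and to 0.397 with the mitochondrial limit alone. It was -3.86 without cells carrying marker UMIs of other types. That setting kept 500 of 532 WT and 332 of 347 cKO neurons, but 4486 of 6766 and 4558 of 6080 kept cells. The base of the share was therefore a different one. Genes higher in cKO (355) were 616 at a minimum of 10 UMIs and 1561 at 1 UMI. Genes lower in cKO (1263 of 8820) were 398 of 3968 under the stricter filter, 404 of 4008 under the mitochondrial limit alone and 681 of 6269 after thinning. They were 2495 of 11806 at 10 UMIs and 4714 of 15941 at 1 UMI. Genes higher over other projection neurons (133 of 9984) were 39 of 4916 under the stricter filter, 39 of 5029 under the mitochondrial limit alone and 85 of 7283 after thinning. They were 401 of 16178 at 1 UMI and 225 of 9303 without marker-carrying cells. Genes lower there (351) were 206 and 200 under these filters, 233 at 2 UMIs of Sema3c plus Unc5d, 575 by the mean of cell CPM, 752 at 10 UMIs and 1979 at 1 UMI. The stricter filters leave fewer cells, these filters and thinning leave fewer comparable genes, and a lower UMI minimum tests more genes. For the other changes the cause was not tested.

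Among single genes past 2-fold, cKO over WT changed sign for Igfbp7 (0.34 at 2 UMIs of Sema3c plus Unc5d), Mef2c (0.023 at 5), Rorb (0.28 at 5), Nefl (0.51 at 5, 0.44 under the stricter filter and 0.42 under the mitochondrial limit), Sepp1 (0.90 at 2, and 0.54 without marker-carrying cells) and Reln. Reln was -0.88 under the stricter filter, -1.16 under the mitochondrial limit, -2.23 at 5 UMIs, -1.49 without the highest 6% of doublet scores, -1.56 without marker-carrying cells and -1.30 without the 2 highest cells. Over other projection neurons and without marker-carrying cells, C1qc (WT) was 0.77, Fabp7 (cKO) 1.65, and Sepp1 0.48 (WT) and 0.85 (cKO). C1qc is a microglia and Fabp7 a radial glia gene, and cells were left out by markers of these types. The exclusion itself therefore bears on the ratios of C1qc and Fabp7. Under the stricter filter and the mitochondrial limit alone, Efna5 was 0.23 and 0.12 in WT and 0.24 and 0.28 in cKO, Emx2 (cKO) -0.41 and -0.30, Mfap4 (cKO) -0.049 and -0.011, and Nrp2 (WT) -0.13 and -0.14. Ratios below 2-fold, or with intervals that held 0, also changed sign, such as Cck from -0.94 to 1.18 under the stricter filter and Fabp7 over other projection neurons in WT from -0.73 to 1.81 without marker-carrying cells. Under the mitochondrial limit 31 of 89 cKO over WT ratios and 68 of 126 over other projection neurons moved by over 1.5 times. Under TMM scaling, 85 of 92 ratios stayed within their intervals and 4, all near 0, changed sign, and the share of higher among genes past 2-fold was 30.5%, beside 21.9%. With 1 library each, every interval covers counting error only.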
